A study of Homo sapiens with 7 samples.

Results

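The genes described here are matrix metalloproteinases, their tissue inhibitors (TIMPs) and the urokinase receptor gene PLAUR in a human muscle tumour cell line. They are the genes of the count table whose symbol is MMP2, MMP9, MMP11, MMP14, MMP15, MMP16, TIMP1, TIMP2, TIMP3 or PLAUR, which makes 10 of 57189 genes in all. All 10 passed the filter on low counts and were among the 23124 genes tested.

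The study measured polyadenylated RNA by sequencing in RH30, an established rhabdomyosarcoma line, to see which genes respond to BV6, a Smac mimetic that causes loss of inhibitor of apoptosis proteins. The 4 untreated libraries carry the labels BC11, BC13, BC14 and BC25/27, and the 3 treated libraries, from cells given 5 µM BV6 for 24 h, carry BC13, BC14 and BC25/27. Every sample is labelled as RH30, tissue cancer, cell type rhabdomyosarcoma and genotype wt, whereas the study's methods describe RH30 cells expressing GFP and luciferase throughout. RH30 is 1 line, and the labels do not say whether the cells grew as monolayers or as spheroids.

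In the untreated group the total counts were 77220882 in BC11, 56684781 in BC13, 59849682 in BC14 and 62049652 in BC25/27. In the BV6 group they were 57464589 in BC13, 59465798 in BC14 and 54070030 in BC25/27. Levels are given as CPM, the usual depth-scaled count, with library totals adjusted by TMM scaling, a correction for differences in library composition. A count of 3, the upper limit that a count of 0 allows, corresponds to between 0.0389 and 0.0557 CPM in these libraries, and this limit covers counting error only because PCR copies are not independent molecules. The totals are larger than the number of sequencing reads that the study's methods give for any library, so a sequenced fragment may have added more than 1 count, and the limit would then be higher. Counts of 20 or more were even in 51.4% to 52.3% of genes per library, so the counts are not plain doubles of whole numbers, and the cause of the gap was not tested further. The study speaks of biological replicates for this experiment, but the labels do not say how the replicate cultures were kept apart, so the p-values measure the spread between these samples, part of which may be technical.

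Matrix metalloproteinases are zinc-dependent enzymes that cut collagens and other proteins of the extracellular matrix. They are made as inactive proenzymes, and some are released as soluble proteins while the membrane-type enzymes stay anchored at the cell surface. TIMPs bind the active enzymes and block them, and the urokinase receptor gathers plasminogen activation at the cell surface, where plasmin can activate some of the proenzymes. In tumours these proteins are known for their part in invasion and in the shedding of surface proteins.

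The label of the cells was checked against marker genes. All 8 rhabdomyosarcoma markers were above the level of 3 counts in every library. Their summed level in the untreated group was 1780 CPM in BC11, 1310 CPM in BC13, 1570 CPM in BC14 and 1680 CPM in BC25/27, with DES, which encodes the muscle filament protein desmin, the most abundant. In the BV6 group the sum was 1100 CPM in BC13, 1020 CPM in BC14 and 1610 CPM in BC25/27. The groups overlapped, since the treated BC25/27 library lay within the untreated range. Each treated sum was below the untreated sum of its label. Of the 8 markers, 6 had a negative and 2 a positive log2 fold change. The markers CHRNG (log2 fold change -0.99, edgeR adjusted p 0.426) and CHRNA1 (-0.27, edgeR adjusted p 0.557) were lower at an unadjusted p below 0.05. They are named after their values were seen, and their groups overlapped. CHRNG shares 2918 exonic bases, 66.9% of its exon length, with TIGD1 on the opposite strand. How many of the CHRNG counts came from TIGD1 was not tested.

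Leukocytes, fibroblasts and endothelial cells also make metalloproteinases and TIMPs, so their markers were measured too. The 17 leukocyte markers summed to 18.9, 15.9, 15.6 and 17.4 CPM in untreated BC11, BC13, BC14 and BC25/27, with NKG7 the most abundant. With BV6 they summed to 15.2, 13.6 and 17.4 CPM in BC13, BC14 and BC25/27. The leukocyte sum lay above the level of MMP9 in every library. S100A8, a marker of granulocytes and monocytes, had a count of 0 in 6 of the 7 libraries, S100A9 in 3 and ELANE in 2. Other markers of this list were counted in every library. LYZ had 8 to 14 counts over the libraries, CD14 14 to 58, MPO 83 to 174 and CD68 125 to 296. The 5 fibroblast markers, led by THY1, summed to 102, 97.8, 95.4 and 101 CPM in the untreated libraries in the same order, and to 86.9, 76.3 and 96.9 CPM with BV6. The 3 endothelial markers, led by PECAM1, summed to 63.1, 48.9, 69.3 and 59.7 CPM untreated and to 26.4, 58.5 and 40.7 CPM with BV6. In both lists each treated sum was below the untreated sum of its label. These sums were nearly those of single genes. In untreated cells THY1 had a mean of 96.3 CPM, against 2.52 for LUM, 0.145 for PDGFRA, 0.0729 for DCN and 0.0537 for FAP. PECAM1 had 59.3 CPM, against 0.817 for VWF and 0.14 for CDH5. Single markers did not all follow these sums. CD68, a macrophage marker, was higher in every treated library, at 2.96 ± 0.918 CPM (SD, n = 4) untreated and 4.73 ± 0.486 CPM (SD, n = 3) with BV6, as was VWF, an endothelial marker, at 0.817 ± 0.265 CPM (SD, n = 4) and 1.48 ± 0.182 CPM (SD, n = 3). MPO, a granulocyte marker, was lower in every treated library, at 1.87 ± 0.279 CPM (SD, n = 4) and 1.56 ± 0.0306 CPM (SD, n = 3). These 3 genes are named after their values were seen. No marker of these 3 lists or of the rhabdomyosarcoma list passed the edgeR test, with an adjusted p of 0.459 for CD68 and 0.415 for VWF. The edgeR fit with GC correction and the label as a block called PECAM1 (adjusted p 0.0134) and DES (0.0421) lower, where other fits reached up to 0.999. That fit was chosen after seeing the data and called 1146 of 17460 genes, against 104 of 23124 in the main edgeR fit. A call in it, here and for genes below, is to be read beside that share. The part of other cell types in the results was not tested.

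One library stood apart from the rest. On the first principal component of all tested genes, which held 35.9% of the variance, BV6 BC14 scored 68.3 and the other libraries scored between -48.6 and 12.2. Its counts also fell away from those of the other libraries as the GC content of the genes increased, by 0.33 on the log2 scale for every 10 points of GC, whereas untreated BC11 deviated by 0.237 in the opposite direction. The remaining slopes lay between -0.037 and 0.075. Mitochondrial genes took 4.78% of the counts of BV6 BC14 and between 3.14% and 4.72% in the other libraries.

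With BV6, MMP9 rose about 7-fold from a very low level, while none of the other 9 genes passed the test. TIMP1 and TIMP2 were somewhat lower in all 3 treated libraries than in all 4 untreated ones, without passing the test. MMP14, TIMP1, TIMP2 and MMP2, which had high levels in untreated cells, kept high levels in treated cells. In the edgeR fit, 1 of the 10 genes was called higher at a Benjamini-Hochberg adjusted p below 0.05, against 0.394% of all genes tested, and 0 were called lower, against 0.0562%; in either direction 0.45% of all genes were called. At an unadjusted p below 0.05 there were 3 of 10, against 8.39% of all genes. The groups did not overlap for 1 gene that was higher with BV6, against 4.94% of all genes, and for 2 that were lower, against 3.89%. The median log2 fold change of the 10 genes was -0.09, and that of all genes tested was -0.014.

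**Figure D1:**
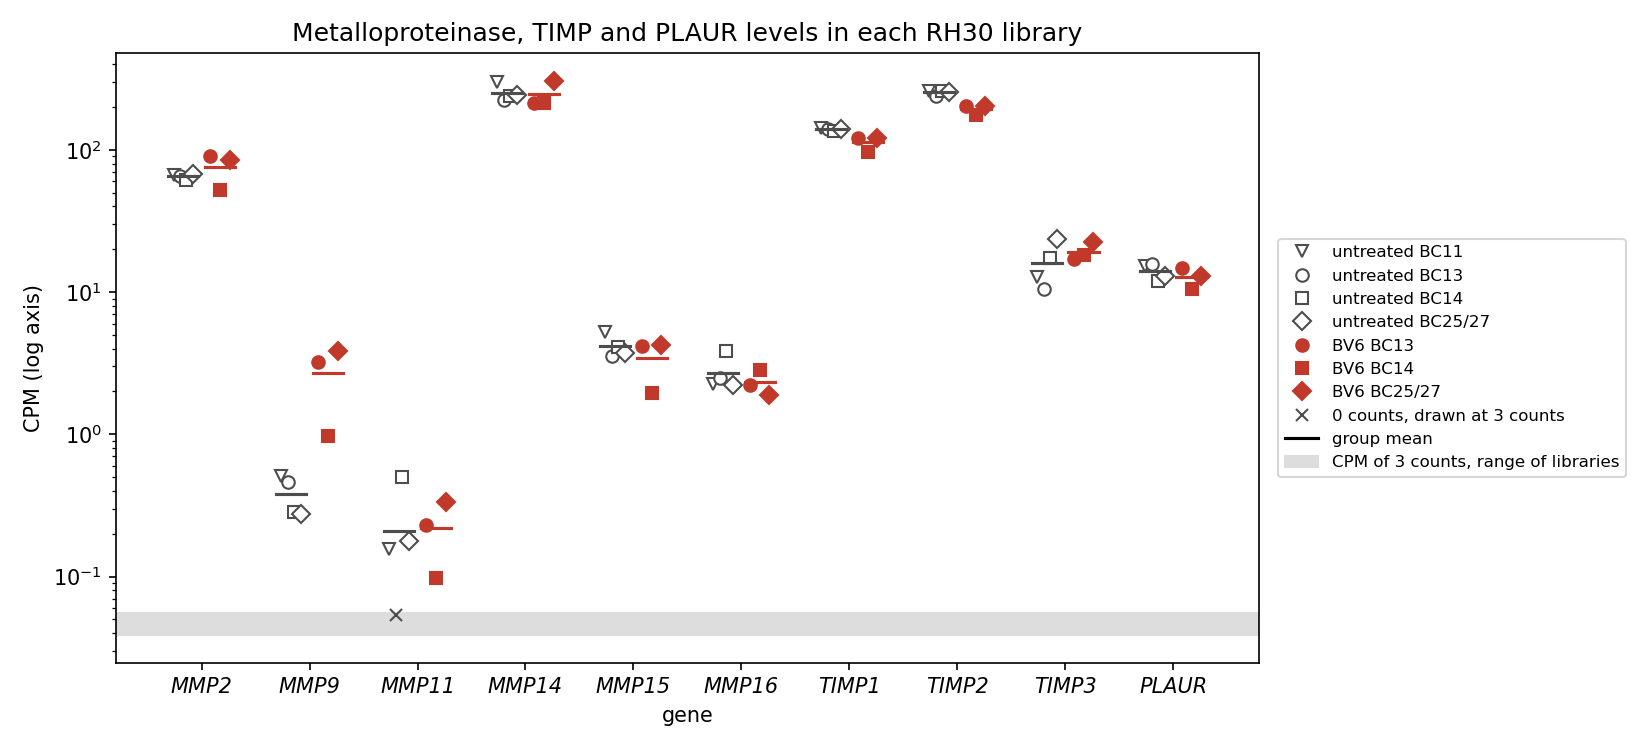
Level of each gene in each of the 7 RH30 libraries, in CPM on a log axis, with open grey symbols for untreated and filled red symbols for BV6 libraries, a bar at each group mean and a grey band at the CPM that 3 counts give. The 3 BV6 libraries lie above the 4 untreated ones for MMP9 and below them for TIMP1 and TIMP2, and the groups overlap for the other 7 genes.

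The gelatinases MMP9 and MMP2 cut denatured collagen and the type IV collagen of basement membranes. MMP9 lies at chr20:46008908-46016561 on the plus strand of GRCh38. It had 39, 26, 17 and 17 counts in untreated BC11, BC13, BC14 and BC25/27, which are levels of 0.506, 0.463, 0.282 and 0.275 CPM. In the BV6 libraries it had 182 counts in BC13, 60 in BC14 and 206 in BC25/27, which are 3.24, 0.978 and 3.83 CPM. Every treated library was above every untreated one, and BV6 BC14, the library that stood apart, had the lowest of the 3 treated levels. Against the untreated library of the same label, MMP9 was 7-fold higher in BC13, 3.47-fold higher in BC14 and 13.9-fold higher in BC25/27. Untreated cells had a mean of 0.382 ± 0.12 CPM (SD, n = 4) and treated cells one of 2.68 ± 1.5 CPM (SD, n = 3), and the edgeR quasi-likelihood test gave a log2 fold change of 2.80 (SE 0.453), or 6.95-fold, with a Benjamini-Hochberg adjusted p of 0.0363.

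The MMP9 call depended on which library was left out and on the tool, although every treated library stayed above every untreated one. Leaving out an untreated library, the edgeR adjusted p was 0.0959 without BC11, 0.0923 without BC13, 0.136 without BC14 and 0.122 without BC25/27. Leaving out a treated one, the edgeR adjusted p was 0.11 without BC13 and 0.127 without BC25/27, and the call was lost in each of these fits. Without BV6 BC14 the log2 fold change was 3.20 with an edgeR adjusted p of 0.00184. The 6 fits with a library left out that lost the call found 38 to 65 genes in all, against 104 in the main fit. Of 10 alternatives with all 7 libraries, some chosen after seeing the data, 9 kept the MMP9 call. DESeq2, which called 408 genes in all, gave an adjusted p of 5.12e-07, and edgeR with the label as a block gave 0.018. The limma-voom test lost the call, with a log2 fold change of 2.58 and an adjusted p of 0.135. Over all alternatives to the edgeR fit the adjusted p ranged from 5.12e-07 to 0.136. An exact permutation test of 4 against 3 libraries cannot give a two-sided p below 0.0571.

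MMP9 shares 430 exonic bases, 18.41% of its exon length, with SLC12A5-AS1, a noncoding gene on the opposite strand. The library kit marks strand, but it is not stated whether the counting used it, how reads over more than 1 gene were handled or if both mates of a read pair added to a count. SLC12A5-AS1 had 45, 19, 16 and 17 counts in untreated BC11, BC13, BC14 and BC25/27. With BV6 it had 47, 8 and 47 counts in BC13, BC14 and BC25/27. Its counts were below those of MMP9 in every treated library, but in untreated cells they were close to them, above in BC11, equal in BC25/27 and below in BC13 and BC14. Against the untreated library of the same label, its level was 2.47-fold in BC13, 0.491-fold in BC14 and 3.18-fold in BC25/27. Its groups overlapped, with a log2 fold change of 0.72 and an edgeR adjusted p of 0.771. How many of the MMP9 counts came from the antisense RNA was not tested; the untreated counts of MMP9, and with them its fold change, are the most exposed to it.

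**Figure D2:**
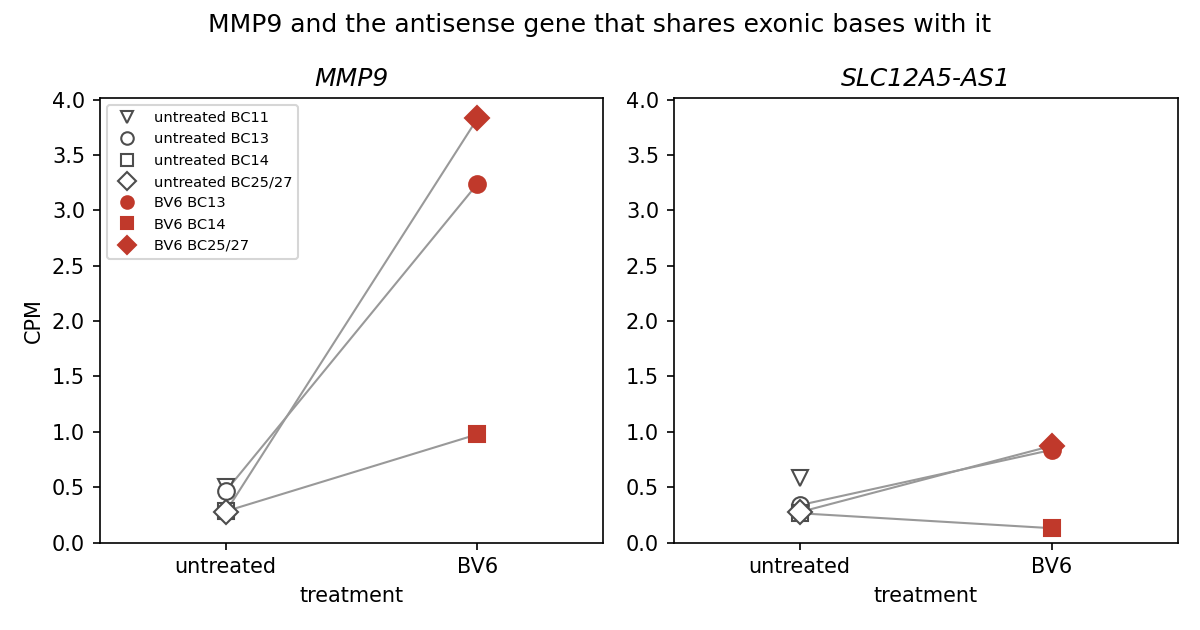
Levels of MMP9 and of SLC12A5-AS1 in each library, in CPM on a linear axis, with lines between libraries that carry the same label. MMP9 is higher with BV6 in all 3 labels, whereas SLC12A5-AS1 lies between 0.13 and 0.873 CPM in the treated libraries and overlaps the untreated ones.

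MMP2, at chr16:55389700-55506691 on the plus strand, encodes gelatinase A, which is activated at the cell surface by MMP14 together with TIMP2. Its level was 66.6, 65.2, 60.9 and 68.0 CPM in untreated BC11, BC13, BC14 and BC25/27. With BV6 it was 89.9 CPM in BC13, 52.3 CPM in BC14 and 84.3 CPM in BC25/27. The untreated libraries were close together, and the treated ones lay on both sides of them, with BV6 BC14 the lowest of all 7. The log2 fold change was 0.21 (SE 0.171) with an edgeR adjusted p of 0.775, and it ranged from 0.07 without BV6 BC13 to 0.42 without BV6 BC14.

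MMP11, at chr22:23768226-23784316 on the plus strand, encodes stromelysin-3, which is activated inside the cell by furin-like convertases. It had 12, 0, 30 and 11 counts in untreated BC11, BC13, BC14 and BC25/27. The treated libraries had 13, 6 and 18 counts in BC13, BC14 and BC25/27. These counts were too low and too uneven to show a difference at this depth. The 0 in untreated BC13 allows up to 0.0534 CPM, and the other libraries had between 0.0978 and 0.498 CPM. The log2 fold change was 0.08 (SE 0.851) with an edgeR adjusted p of 0.988, and it ranged from -0.35 to 0.92 with a library left out.

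The membrane-type enzymes act on matrix and on other surface proteins from the cell membrane. MMP14, at chr14:22836560-22849041 on the plus strand, encodes MT1-MMP, a collagenase that also activates the MMP2 proenzyme. Its level was 302, 224, 239 and 242 CPM in untreated BC11, BC13, BC14 and BC25/27. With BV6 it was 215, 214 and 306 CPM in BC13, BC14 and BC25/27. The groups overlapped, with untreated BC11 and BV6 BC25/27 high and the other 5 libraries close to each other. The log2 fold change was -0.04 (SE 0.157) with an edgeR adjusted p of 0.964, and its sign turned in 3 of the 7 fits that left out a library, over a range from -0.23 to 0.06.

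MMP15 at chr16:58025754-58046901 on the plus strand and MMP16 at chr8:88032011-88328025 on the minus strand encode MT2-MMP and MT3-MMP. MMP15 had 5.26, 3.55, 4.08 and 3.74 CPM in untreated BC11, BC13, BC14 and BC25/27. With BV6 it had 4.15, 1.96 and 4.25 CPM in BC13, BC14 and BC25/27. The low treated value came from BV6 BC14, and the groups overlapped (log2 fold change -0.27, SE 0.28, edgeR adjusted p 0.821). MMP16 had 2.26, 2.48, 3.85 and 2.22 CPM in the untreated libraries in the same order. With BV6 it had 2.21, 2.85 and 1.89 CPM. Here untreated BC14 was high against the other 3 untreated libraries, and the groups overlapped (log2 fold change -0.22, SE 0.255, edgeR adjusted p 0.842). Leaving out 1 library moved the MMP15 log2 fold change between -0.46 and 0.02 and that of MMP16 between -0.39 and 0, and GC correction gave -0.01 for MMP15.

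The TIMPs are secreted proteins that bind metalloproteinases. TIMP2, at chr17:78852977-78925387 on the minus strand, blocks most of these enzymes and also forms the complex through which MMP14 activates MMP2. Its level was 261, 237, 258 and 255 CPM in untreated BC11, BC13, BC14 and BC25/27. With BV6 it was 203, 176 and 203 CPM in BC13, BC14 and BC25/27. All 3 treated libraries were below all 4 untreated ones, and each was below the untreated library of its label, at 0.855, 0.681 and 0.795 of its level. The mean was 253 ± 10.5 CPM (SD, n = 4) untreated and 194 ± 15.8 CPM (SD, n = 3) with BV6, a log2 fold change of -0.38 (SE 0.0975), which did not pass edgeR's test with an adjusted p of 0.208. DESeq2, which called 408 genes in all, called TIMP2 lower with an adjusted p of 0.0458. The edgeR fit with GC correction and the label as a block, which called 1146 genes, did so with 0.00753. Over all alternatives the adjusted p ranged up to 0.518. TIMP2 shares 224 exonic bases, 3.61% of its exon length, with CEP295NL on the same strand, which had between 17.0 and 20.3 CPM in the untreated and between 14.4 and 15.2 CPM in the treated libraries.

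TIMP1, at chrX:47582408-47586789 on the plus strand, encodes the inhibitor known for binding MMP9 and its proenzyme. Its level was 143, 139, 135 and 140 CPM in untreated BC11, BC13, BC14 and BC25/27. With BV6 it was 122, 97.2 and 121 CPM in BC13, BC14 and BC25/27. The treated libraries were again below the untreated ones, with BV6 BC14 the lowest, at 0.872, 0.718 and 0.866 of the untreated library of the same label. The mean was 139 ± 3.1 CPM (SD, n = 4) untreated and 113 ± 13.9 CPM (SD, n = 3) with BV6, and the log2 fold change of -0.30 (SE 0.107) did not pass, with an edgeR adjusted p of 0.473. It was -0.18 with GC correction and -0.20 without BV6 BC14. Fewer cells of a type and less RNA per cell cannot be told apart in such bulk samples.

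TIMP3, at chr22:32801705-32863041 on the plus strand, encodes an inhibitor that stays bound to the matrix and also blocks several ADAM enzymes. Its level was 12.7, 10.5, 17.4 and 23.6 CPM in untreated BC11, BC13, BC14 and BC25/27. With BV6 it was 17.1, 18.2 and 22.5 CPM in BC13, BC14 and BC25/27. The untreated values spread more widely than the treated ones and enclosed them, and the log2 fold change was 0.26 (SE 0.256) with an edgeR adjusted p of 0.815. It ranged from 0.10 without untreated BC13 to 0.51 without untreated BC25/27. TIMP1 lies within the span of SYN1 and TIMP3 within that of SYN3, each on the opposite strand and with 0 shared exonic bases.

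PLAUR, at chr19:43646095-43670547 on the minus strand, encodes the receptor that holds urokinase at the cell surface. Its level was 15.2, 15.7, 12 and 13 CPM in untreated BC11, BC13, BC14 and BC25/27. With BV6 it was 14.8, 10.5 and 13 CPM in BC13, BC14 and BC25/27. The groups overlapped, with BV6 BC14 the lowest, and the log2 fold change was -0.13 (SE 0.164) with an edgeR adjusted p of 0.849, in a range from -0.24 to -0.01 with a library left out and at -0.06 with GC correction.

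**Figure D3:**
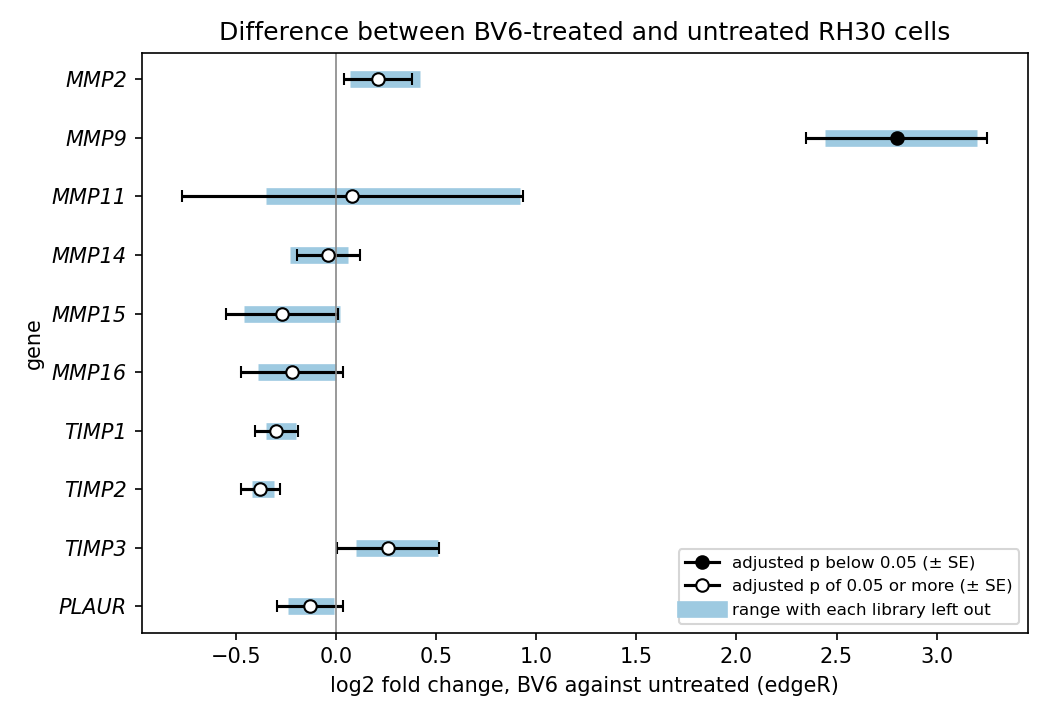
Log2 fold change of each gene with BV6 against untreated in the edgeR fit, where bars are the SE, filled points passed an adjusted p of 0.05 and blue bands give the range when each of the 7 libraries is left out. MMP9 lies at 2.80 with a band from 2.44 to 3.20, and the other 9 genes lie between -0.38 and 0.26.

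The genes differed far more from each other than between the groups. Levels of different genes are compared as CPM per kb of exon length. That length joins all annotated exons of a gene and can exceed the transcripts made, so the order is approximate. In untreated cells TIMP1 was highest at 96.4 ± 2.14 CPM per kb (SD, n = 4), followed by MMP14 at 54.4 ± 7.43, TIMP2 at 40.7 ± 1.7 and MMP2 at 13.8 ± 0.657 CPM per kb. TIMP3 at 3.49 ± 1.26 and PLAUR at 3.14 ± 0.396 CPM per kb came next and overlapped. Below them were MMP15 at 0.982 ± 0.182, MMP16 at 0.223 ± 0.064, MMP9 at 0.163 ± 0.0515 and MMP11 at 0.0404 ± 0.0406 CPM per kb, of which MMP16 and MMP9 overlapped. Thus inhibitors and the MMP2 activation set of MMP14, TIMP2 and MMP2 made up the top of the order, and MMP9 stood near its bottom.

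With BV6 the order of the 6 highest genes was the same. TIMP1 had 78.3 ± 9.62 CPM per kb (SD, n = 3), MMP14 53.0 ± 11.5, TIMP2 31.2 ± 2.54 and MMP2 16.0 ± 4.3 CPM per kb. MMP9 reached 1.15 ± 0.644 CPM per kb, overlapped MMP15 at 0.816 ± 0.307 CPM per kb and so moved from the ninth to the seventh place of the order. MMP16 at 0.192 ± 0.0404 and MMP11 at 0.043 ± 0.023 CPM per kb came last.

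**Figure D4:**
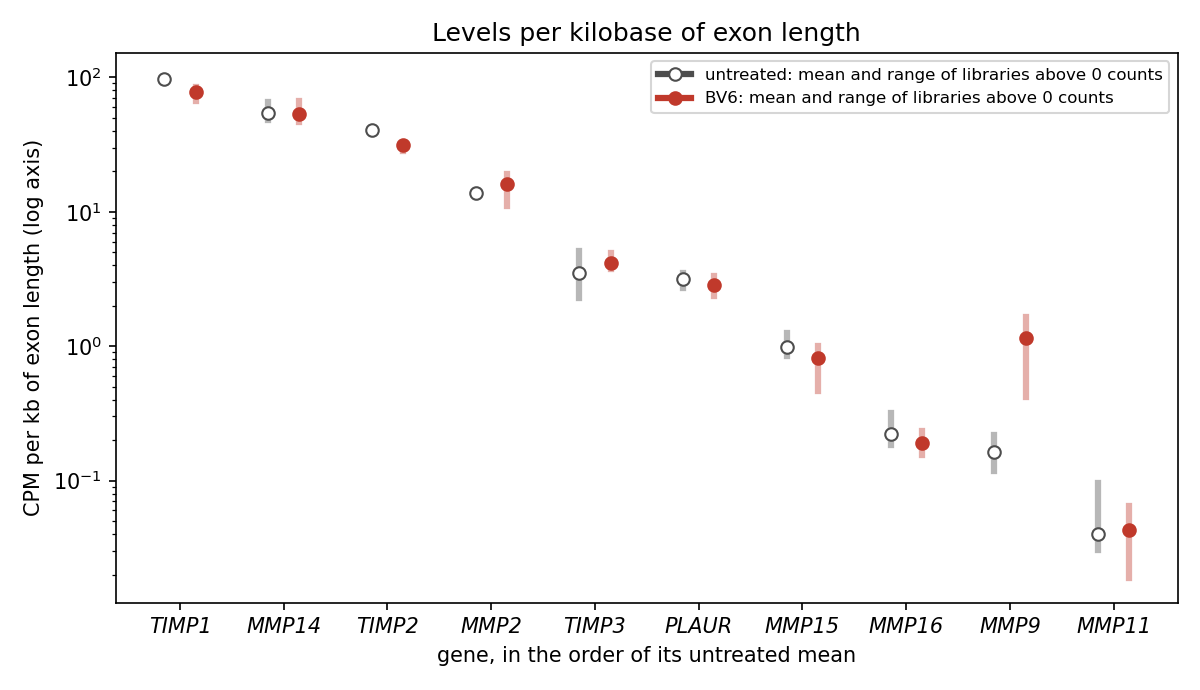
Mean level of each gene in CPM per kb of exon length on a log axis, in untreated (open grey) and BV6 (filled red) libraries, with thick lines from the lowest to the highest library above 0 counts. MMP9 goes from 0.163 to 1.15 CPM per kb, past MMP16 and beside MMP15. It remains below TIMP3, at 4.19 CPM per kb with BV6, and far below MMP14, TIMP1 and TIMP2.

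The summed level of the 6 metalloproteinases was 69.7 ± 7.83 CPM per kb (SD, n = 4) untreated and 71.2 ± 14.5 CPM per kb (SD, n = 3) with BV6, and the groups overlapped. MMP9 made up 0.267%, 0.312%, 0.183% and 0.173% of that sum in untreated BC11, BC13, BC14 and BC25/27. With BV6 its share was 2.03%, 0.717% and 1.88% in BC13, BC14 and BC25/27. The share was thus higher in every treated library, while MMP14 supplied most of the sum in both groups, 78.0% ± 1.86 (SD, n = 4) and 74.5% ± 5.59 (SD, n = 3).

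The summed level of the 3 TIMPs was 141 ± 3.2 CPM per kb (SD, n = 4) untreated and 114 ± 12.4 CPM per kb (SD, n = 3) with BV6, and the groups did not overlap. The ratio of summed TIMPs to summed metalloproteinases was 1.77, 2.16, 2.1 and 2.1 in untreated BC11, BC13, BC14 and BC25/27. With BV6 the ratio was 1.76, 1.7 and 1.39 in BC13, BC14 and BC25/27. All 3 treated ratios were lower than the untreated ones, but BV6 BC13 and untreated BC11 were nearly equal. The ratio of TIMP1 to MMP9 per kb was 635 ± 190 (SD, n = 4) untreated and 90.7 ± 60.6 (SD, n = 3) with BV6. The treated values were 60.6 in BC13, 160 in BC14 and 51.1 in BC25/27, so the treated mean depended strongly on BV6 BC14. The ratio of TIMP2 to MMP2 per kb was 2.95 ± 0.196 (SD, n = 4) untreated and 2.03 ± 0.451 (SD, n = 3) with BV6. Neither of these ratios overlapped between the groups. The ratio of TIMP2 to MMP14 per kb, 0.755 ± 0.0745 (SD, n = 4) untreated and 0.602 ± 0.105 (SD, n = 3) with BV6, did overlap, since BV6 BC13 at 0.702 was above untreated BC11 at 0.644. No test was made of any ratio.

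Of 17 other metalloproteinases listed, 12 were not tested, and none of these had more than 9 counts in any library. Of the 5 that were tested, edgeR called 0 in either direction (1 at an unadjusted p below 0.05), and their median log2 fold change was -0.35. MMP19, which acts on basement membrane proteins, had 17.5 ± 2.52 CPM (SD, n = 4) untreated and 22.4 ± 2.67 CPM (SD, n = 3) with BV6 (log2 fold change 0.36, edgeR adjusted p 0.569). At 3.74 and 4.79 CPM per kb its mean was above those of TIMP3 and PLAUR, but the libraries overlapped. Over all libraries MMP19 had 3.22 to 5.32, TIMP3 2.29 to 5.14 and PLAUR 2.36 to 3.53 CPM per kb. MMP19 shares 821 exonic bases, 17.57% of its exon length, with TMEM198B on the opposite strand, which had 24.6 ± 5.97 CPM (SD, n = 4) untreated and 24.4 ± 2.02 CPM (SD, n = 3) with BV6, so the MMP19 level may hold reads of TMEM198B. For MMP19, edgeR gave a call of higher in the fit with GC correction and the label block, with an adjusted p of 0.0414 in a range up to 0.963. MMP24, encoding the membrane-type enzyme MT5-MMP, had 7.36 ± 0.874 CPM (SD, n = 4) and 5.77 ± 1.51 CPM (SD, n = 3), and shares 806 exonic bases with MMP24OS. MMP25 had 1.18 ± 0.312 CPM (SD, n = 4) and 0.85 ± 0.496 CPM (SD, n = 3) and shares 1454 exonic bases with MMP25-AS1. MMP23B, which has a near-identical copy, MMP23A, so that its reads could be split, was at 0.436 ± 0.161 CPM (SD, n = 4) and 0.306 ± 0.0684 CPM (SD, n = 3).

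Of 6 other genes listed as inhibitors of metalloproteinases or their relatives, 5 were tested, edgeR called 0 (1 at an unadjusted p below 0.05), and the median log2 fold change was -0.60. RECK, a membrane-anchored inhibitor, had 21.9 ± 4.95 CPM (SD, n = 4) untreated and 19.5 ± 5.59 CPM (SD, n = 3) with BV6. SPOCK2, a matrix proteoglycan of the testican family that is known to counter, not to cause, inhibition of membrane-type enzymes, and the gene with the unadjusted p below 0.05, had 1.59 ± 0.672 CPM (SD, n = 4) and 0.672 ± 0.285 CPM (SD, n = 3), with a log2 fold change of -1.25 and an edgeR adjusted p of 0.371 (0.036 with GC correction and the label block, in a range up to 0.717). Its groups overlapped in 1 place, where the treated BC25/27 library at 0.984 CPM was above untreated BC13 at 0.909 CPM. The protease trap A2M, which shares 561 exonic bases with A2M-AS1, and the proteoglycan SPOCK1 were at or below 1.42 CPM in every library.

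The plasminogen system works beside PLAUR. Of its 12 other genes 10 were tested, edgeR called 0 (4 at an unadjusted p below 0.05), and the median log2 fold change was 0.23. PLAU, which encodes urokinase itself, had 126, 142, 121 and 125 CPM in untreated BC11, BC13, BC14 and BC25/27. With BV6 it had 128, 126 and 143 CPM in BC13, BC14 and BC25/27. The urokinase values thus overlapped, with BV6 BC25/27 just above the highest untreated library, and with a log2 fold change of 0.04 and an edgeR adjusted p of 0.934; PLAU shares 915 exonic bases with C10orf55. ANXA2, which with S100A10 forms a surface receptor for plasminogen and its tissue activator, had 545 ± 75.5 CPM (SD, n = 4) untreated and 758 ± 77.5 CPM (SD, n = 3) with BV6. Every treated library was above every untreated one for ANXA2, which did not pass (log2 fold change 0.47, edgeR adjusted p 0.237). The edgeR fit with GC correction and the label block, which called 1146 genes in all, called ANXA2 with an adjusted p of 0.00337. The other fits reached up to 0.571. S100A10 had 49.8 ± 8.97 CPM (SD, n = 4) and 59.2 ± 3.01 CPM (SD, n = 3), and LRP1, a receptor that clears protease complexes, 1190 ± 130 CPM (SD, n = 4) and 991 ± 401 CPM (SD, n = 3), both with overlap. PLAT, the gene of tissue plasminogen activator, named after its values were seen, was lower in every treated library, at 142 ± 14.5 CPM (SD, n = 4) untreated and 90.1 ± 18 CPM (SD, n = 3) with BV6. PLAT did not pass (log2 fold change -0.66, edgeR adjusted p 0.143), but was called by DESeq2 with an adjusted p of 0.0124, by edgeR without a filter on low counts with 0.0333 and with GC correction and the label block with 0.00837; the other fits reached up to 0.394.

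Furin and related convertases activate the membrane-type enzymes and MMP11. All 4 were tested and edgeR called 0 (0 at an unadjusted p below 0.05), with a median log2 fold change of -0.31. FURIN had 106 ± 19.4 CPM (SD, n = 4) untreated and 72.1 ± 29.3 CPM (SD, n = 3) with BV6, with overlap, and its lowest value, 41.1 CPM, was in BV6 BC14. PCSK5, PCSK6 and PCSK7 also overlapped between the groups. In the edgeR fit with GC correction and the label block, FURIN was called lower with an adjusted p of 0.0111, in a range up to 0.999, and so was PCSK5 with 0.0362, in a range up to 0.999.

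Of 7 inducers and binding partners of metalloproteinases, 6 were tested and edgeR called 1 higher, with a median log2 fold change of 0.12. That gene was CD44, the hyaluronan receptor, which can hold MMP9 at the cell surface. CD44 had 154, 211, 165 and 193 CPM in untreated BC11, BC13, BC14 and BC25/27. The treated libraries had 336, 311 and 309 CPM in BC13, BC14 and BC25/27. Every treated library was above every untreated one, and the treated levels were close together, BV6 BC14 included. The mean was 181 ± 25.9 CPM (SD, n = 4) untreated and 318 ± 14.9 CPM (SD, n = 3) with BV6, a log2 fold change of 0.82 (SE 0.123), or 1.76-fold, with an edgeR adjusted p of 0.025. The call was lost without untreated BC11 (edgeR adjusted p 0.0708), untreated BC14 (0.106), untreated BC25/27 (0.0777), BV6 BC13 (0.0799) or BV6 BC25/27 (0.0709). ITGAV, the integrin alpha V subunit, to which MMP2 can be docked, had 173 ± 19.4 CPM (SD, n = 4) untreated and 248 ± 7.28 CPM (SD, n = 3) with BV6. ITGAV did not pass edgeR (log2 fold change 0.52, adjusted p 0.113) although its groups did not overlap. DESeq2 called ITGAV with an adjusted p of 0.0174 and the edgeR fit with GC correction and the label block with 0.00335, in a range up to 0.338. BSG, also known as EMMPRIN, an inducer of metalloproteinases, had 301 ± 53.2 CPM (SD, n = 4) and 239 ± 110 CPM (SD, n = 3), with its lowest value, 112 CPM, in BV6 BC14. CAV1, the caveolin gene, had 95.9 ± 9.83 CPM (SD, n = 4) and 105 ± 12.8 CPM (SD, n = 3).

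The related ADAM and ADAMTS enzymes shed surface proteins and cut proteoglycans. Of 11 ADAM genes 10 were tested and edgeR called 0 (1 at an unadjusted p below 0.05), with a median log2 fold change of 0.04. The gene with that unadjusted p was ADAM33, named after its values were seen (log2 fold change 1.44, edgeR adjusted p 0.508). ADAM33 had 2, 6, 10 and 6 counts in untreated BC11, BC13, BC14 and BC25/27. With BV6 it had 13, 13 and 19 counts in BC13, BC14 and BC25/27, without overlap. It passed the filter on low counts only through the BV6 group, so its test was tied to that difference. ADAM10, a main sheddase, had 327 ± 41.3 CPM (SD, n = 4) untreated and 329 ± 49.6 CPM (SD, n = 3) with BV6, and ADAM9, ADAM19 and ADAM23 also overlapped between the groups. ADAM19 was called higher in the edgeR fit with GC correction and the label block, with an adjusted p of 0.0151 in a range up to 0.985. Of 19 ADAMTS genes 16 were tested and edgeR called 0 (2 at an unadjusted p below 0.05), with a median log2 fold change of -0.03. ADAMTS1 had 388 ± 41.7 CPM (SD, n = 4) untreated and 303 ± 29.9 CPM (SD, n = 3) with BV6, without overlap and without passing edgeR (log2 fold change -0.35, adjusted p 0.402). The edgeR fit with GC correction and the label block called ADAMTS1 lower with an adjusted p of 0.0235, in a range up to 0.769, and ADAMTS7 higher with 0.0176, in a range up to 0.999. ADAMTS7 had 93.4 CPM in BV6 BC25/27 and at most 57.2 CPM in any other library, and without BV6 BC25/27 its log2 fold change was -0.29. ADAMTS9, named after its values were seen, was higher in every treated library, at 8.05 ± 0.691 CPM (SD, n = 4) untreated and 11.1 ± 0.813 CPM (SD, n = 3) with BV6, and did not pass (log2 fold change 0.46, edgeR adjusted p 0.321), though edgeR with GC correction and the label block called it with an adjusted p of 0.0403, in a range up to 0.636. ADAMTS5, an aggrecanase, ADAMTS7 and ADAMTS12 overlapped between the groups.

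MMP9 is a known NF-kB target, so a list of 9 NF-kB response genes gives a scale for its change. All 9 were tested and 6 were called higher by edgeR, with a median log2 fold change of 1.67. The list was chosen with the response of several of its genes in these samples known, so it is no independent evidence. The MMP9 log2 fold change of 2.80 lay within their range. BIRC3, which encodes an inhibitor of apoptosis protein, had a log2 fold change of 4.86 (edgeR adjusted p 0.00341), and the chemokine gene CCL5 had 4.72 (edgeR adjusted p 0.00167). CCL5 had between 4 and 9 counts in the untreated libraries and passed the filter on low counts only through the BV6 group, so its place among the genes tested was tied to that difference. NFKBIA, encoding the NF-kB inhibitor I kappa B alpha, had 2.17 (edgeR adjusted p 0.0116), and NFKB2, encoding an NF-kB precursor, had 1.67 (edgeR adjusted p 0.011). Without untreated BC25/27 the edgeR adjusted p was 0.0579 for NFKBIA and 0.0536 for NFKB2, and both calls were lost. With the label as a block, edgeR also called RELB, with an adjusted p of 0.0322 against 0.556 without it. The other 2 genes of the list did not pass: CXCL8 had a log2 fold change of 0.78 (edgeR adjusted p 0.717) and was lower in BV6 BC14 than in untreated BC14, and ICAM1 had 0.63 (edgeR adjusted p 0.768) and was lower in BV6 BC25/27 than in untreated BC25/27. TRAF1, an adaptor of tumour necrosis factor receptors, had 10.6, 15.2, 8.58 and 14.1 CPM in untreated BC11, BC13, BC14 and BC25/27. With BV6 it had 232, 89.3 and 114 CPM in BC13, BC14 and BC25/27. TRAF1 was high in every treated library, with a log2 fold change of 3.58 and an edgeR adjusted p of 0.00341. TNFAIP3, a feedback inhibitor of NF-kB, had 42.8 ± 4.69 CPM (SD, n = 4) untreated and 77.7 ± 4.54 CPM (SD, n = 3) with BV6, a log2 fold change of 0.86 with an edgeR adjusted p of 0.0145. The TNFAIP3 call was lost without untreated BC11 (edgeR adjusted p 0.0606), BC14 (0.0775) or BC25/27 (0.0536), or without BV6 BC13 (0.0581).

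**Figure D5:**
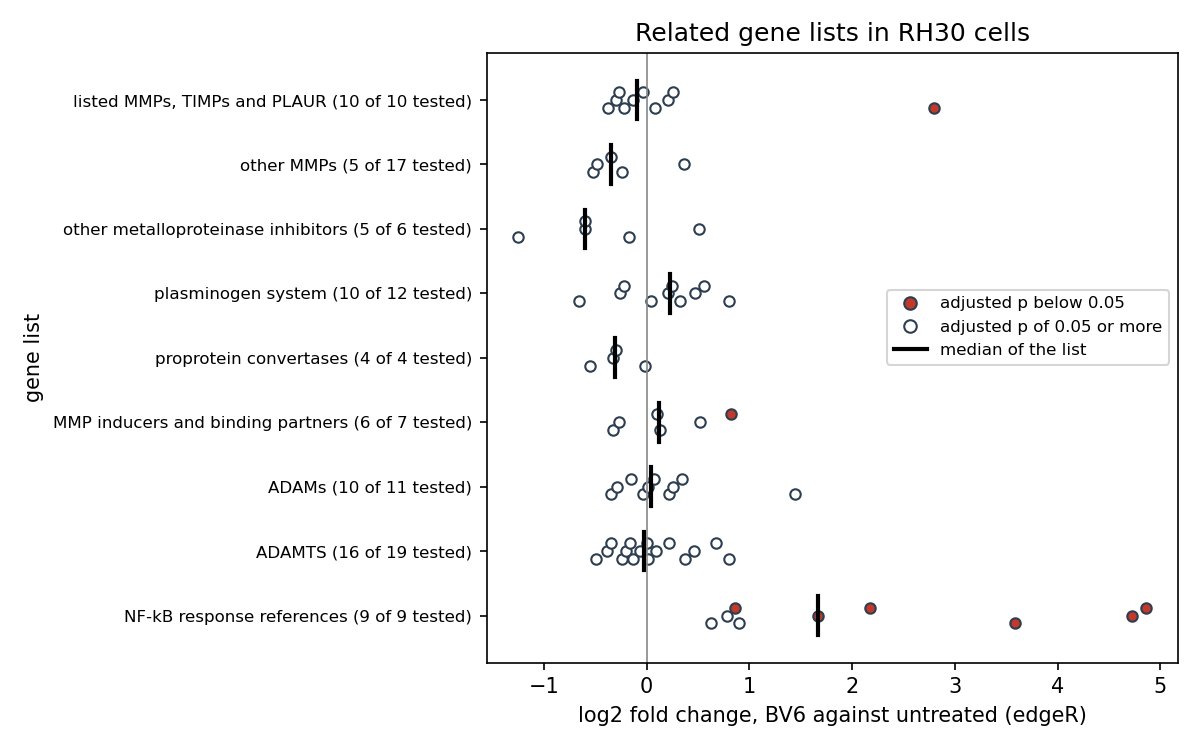
Log2 fold change of every tested gene of each list with BV6 against untreated in the edgeR fit, filled red where the adjusted p was below 0.05, with a black bar at the median of the list. MMP9 and CD44 are the called genes of the protease lists, and 6 of the 9 NF-kB response genes are called.

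Genes whose levels followed MMP9 most closely over the 7 libraries were sought among 17058 genes with a mean of at least 1 CPM, as a description. The Pearson correlation of log2 CPM was 0.998 for the noncoding gene AC026310.2, 0.993 for TAPBP, which encodes the MHC class I loading factor tapasin, 0.984 for SLC22A4, a carrier, 0.982 for KRT7, a keratin, and 0.978 for GYPC, a glycophorin. The mean level of TAPBP was 68.5 CPM untreated and 126 CPM with BV6, and that of KRT7 was 3.9 and 12.5 CPM. The 5 genes were chosen for following MMP9, so no test of their difference between the groups is given.

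Promoter sequence was matched by symbol for 6 of the 10 genes, as the 250 bases before the start in a RefSeq table of GRCh38.p14. The copy of the table used here gave no match for MMP2, MMP9, MMP16 and TIMP2, which says nothing about RefSeq itself. The starts in that table are not always those of the GENCODE spans given above: the MMP11 window, chr22:23772599-23772848, and the PLAUR window, chr19:43670170-43670419, lie inside those spans, and the MMP14 and TIMP1 windows reach into them. Both strands were searched for AP-1 (TGANTCA), SP1 (GGGCGG) and the kappa-B consensus. SP1 letters occurred 3 times before MMP11, 1 time before MMP14, 5 times before MMP15, 2 times before TIMP1, 5 times before TIMP3 and 0 times before PLAUR. AP-1 letters occurred 1 time before PLAUR and before none of the other 5, and the kappa-B consensus before none of the 6. Of 35116 promoters of the same length in the table, 6.57% hold AP-1 letters, 42.6% SP1 letters and 9.96% the kappa-B consensus. A match describes letters and is no evidence of binding.

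The TIMP1 promoter is shown because TIMP1 had the highest level per kb of the 10 genes in both groups. The 222 bases at chrX:47582186-47582407 on the plus strand are given, with the SP1 letters, read here on the opposite strand, in capitals; 28 bases of the 250 are left off because they lie in an annotated exon.
TIMP1: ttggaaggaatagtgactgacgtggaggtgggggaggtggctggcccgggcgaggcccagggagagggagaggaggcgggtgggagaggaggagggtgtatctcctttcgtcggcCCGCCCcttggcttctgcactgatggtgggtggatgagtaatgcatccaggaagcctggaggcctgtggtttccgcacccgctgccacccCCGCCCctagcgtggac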

How the data were processed

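The values used are the deposited gene counts of 7 libraries; the authors aligned reads with STAR 2.6.1d to GRCh38 and counted them over a custom union model of each gene, and the program, strand setting and treatment of mates are not stated. The counts were whole numbers and entered the tests unchanged. In R 4.3.3 with edgeR 4.0.16, genes were filtered with filterByExpr (minimum count 10), scaled by TMM and tested by glmQLFit and glmQLFTest. The test set 3 BV6 against 4 untreated libraries without pairing by label, with Benjamini-Hochberg adjustment over 23124 genes and a threshold of 0.05. Besides all 10 members, the text names every called gene of the lists and up to 4 genes with the highest level of each protease-related list; a few genes named after their values were seen are marked as such. Members and lists were chosen with earlier results of these data known.

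Alternatives were DESeq2 1.42.0, limma-voom (limma 3.58.1), RLE scaling, no or a stricter filter, halved counts, the label as a block, and each library left out; GC correction (a loess curve per library), with and without the block, and its gene subset were chosen after seeing the data. Scripts were tested on simulated data. Exon lengths, GC content, coordinates and overlaps come from GENCODE 44, in which 36327 of 57189 genes were matched by symbol.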

Additional observations from a re-analysis of the deposited data

Results flagged for a closer look

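MMP16 in untreated BC14 lay far from the other untreated libraries, at 3.85 CPM against 2.22 to 2.48 CPM in the other 3. The gap to the nearest library was 0.84 of the whole range of the group, above the 95% critical value of Dixon's test for 4 values. Among 59 genes checked in the untreated group, 1 was found, and chance alone gives about 1 in 20 groups; the BV6 group has 3 libraries and was not checked.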

How the results depend on the processing

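Against 104 genes called by edgeR, DESeq2 called 408, edgeR without a filter on low counts 242, with GC correction 203, and with GC correction and the replicate block 1146; the GC fits used the 17460 genes of known GC content, on which edgeR without correction called 92. With each library left out edgeR called 38 to 89, with fewer libraries. Of the 10 members, edgeR called 1, DESeq2 2, GC correction with the replicate block 2, limma-voom 0 and the fits with a library left out 0 to 1. The log2 fold change of MMP9 was 2.58 by limma-voom and 2.44 to 3.20 with a library left out. With the BC label as a replicate block, where untreated BC11 has no partner and carries no information, 218 genes were called (150 higher, 68 lower), no call among the 10 members changed, and of the other named genes RELB gained one. Same-label libraries correlated, as deviations from their group means, at 0.462 in BC13, 0.438 in BC14 and 0.0847 in BC25/27, or at 0.515, 0.322 and 0.197 over the 3 untreated libraries with a partner; on the first measure BV6 BC25/27 correlated best with untreated BC11 (0.278), and on the second each BV6 library correlated best with its own label. The first leaves 1 pair under 0.1, and the fit without the block, planned as the main one, was kept. Whether the label pairs the samples is not settled, so the main p-values ignore any pairing. With the block the edgeR adjusted p was 0.018 for MMP9, 0.156 for TIMP2 and 0.275 for TIMP1. The sign turned for MMP14 with the replicate block (0.04), GC correction (0.11) and both (0.13), MMP23B with both (0.03), PCSK6 with GC correction (0.02), and ADAM9 with GC correction (-0.01) and both (-0.02). It turned for ADAM10 with DESeq2 (-0.01), RLE (0), the block (-0.04), GC correction (-0.08) and both (-0.08), and for ADAMTS12 with DESeq2 (0), RLE (0), the block (-0.02), GC correction (-0.01) and both (-0.03). TMEM198B turned with limma-voom (0.02), the block (0.06), GC correction (0.11) and both (0.12). With a library left out the sign turned for TMEM198B (-0.10 to 0.15), MMP11 (-0.35 to 0.92), MMP14 (-0.23 to 0.06), MMP15 (-0.46 to 0.02), MMP16 (-0.39 to 0), RECK (-0.37 to 0.04), PLAU (-0.02 to 0.09), PCSK6 (-0.34 to 0.16), BSG (-0.55 to 0.01), ADAM10 (-0.08 to 0.14), ADAM23 (-0.18 to 0.08), ADAMTS7 (-0.29 to 0.72) and ADAMTS12 (-0.04 to 0.09). MMP9 lost its call in 7 of 17 alternatives. Of 980 values of 58 other named genes tested for a difference, 900 kept direction and side of the threshold. Of the rest, 11 lost a call, 20 gained one and 49 changed sign, and the cause was not tested. ADAM33, CHRNG and CHRNA1 are not among these genes. MMP11, with counts near the floor, gave no value under the stricter filter or with halved counts.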
